A study of Drosophila melanogaster with 9 samples.

Results

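The transcripts described here are 9 genes that mark fly neurons or make, load or receive neurotransmitters: elav, ChAT, VAChT, Gad1, Rdl, VGlut, Ddc, ple and Vmat. They were chosen by name, with earlier results of these data known. Of the 18769 non-control probe sets, 13 carried one of these gene symbols in the array's annotation. The arrays came from 3 groups of 10-day-old Canton-S females, a laboratory wild-type strain: flies on a restricted diet, flies on a normal diet plus resveratrol, a plant polyphenol, and flies on the normal diet. Each group had 3 biological replicates, and each array carried head and thorax RNA pooled from at least 75 flies. The neurons measured were therefore those of the brain, the eye and the thoracic ganglia. They lay within a mixture with other eye cells, muscle, glia, fat body and gut. Neither the composition of the diets nor the resveratrol dose is given in the sources used here.

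A neuron is recognised in flies by the RNA-binding protein Elav and by the transmitter it releases. Each transmitter needs an enzyme that makes it, a carrier that packs it into synaptic vesicles and receptors on the next cell. Acetylcholine is the main fast excitatory transmitter of the fly central nervous system, glutamate is the transmitter of its motor neurons, GABA is the main inhibitory transmitter, and dopamine, serotonin and octopamine modulate behaviour and feeding. The dopamine enzymes ple and Ddc also serve the epidermis, where their products harden and darken the cuticle.

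Values are log2 units of GCRMA, a method that subtracts background and sums up the probes of a set; they cannot be compared between probe sets, so no order of levels among genes is given. A value under log2 4 was taken as not clearly above background. A gene entered the tests where 1 of its probe sets reached log2 4 on at least 3 of the 9 arrays, and its brightest probe set stood for it. This held for 8 of the 9 genes and for 8822 genes in all. VGlut did not enter. A gene passed at an adjusted p under 0.05 (limma, Benjamini-Hochberg over the 8822 genes).

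The first comparison asks how neuronal and transmitter transcripts stand in flies whose food was restricted, with flies on the normal diet as controls. Of the 8 measured genes, 6 fell on the restricted diet, none rose, and ple and Vmat did not pass; relative to the mean of 10 other pan-neuronal genes on the same array, however, 5 of the 8 changes had a positive sign, and the median change of all genes tested was 0.45 on that scale. Over all genes tested 18.2% passed, 12.9% in the lower and 5.27% in the higher direction. The same 6 genes had every restricted-diet value below every normal-diet value, as did 28.4% of all genes. The median change of the 8 genes was -0.44, against -0.05 over all genes tested. Since the 8 genes were chosen with earlier results known, the values over all genes are given for scale only and are no test. VAChT had the lowest value of the 8, -0.80, and 1.07% of all genes tested had a lower one. In RNA from a mixture of tissues, fewer neurons, a smaller share of neuronal RNA and less of a transcript per neuron cannot be told apart.

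**Figure D1:**
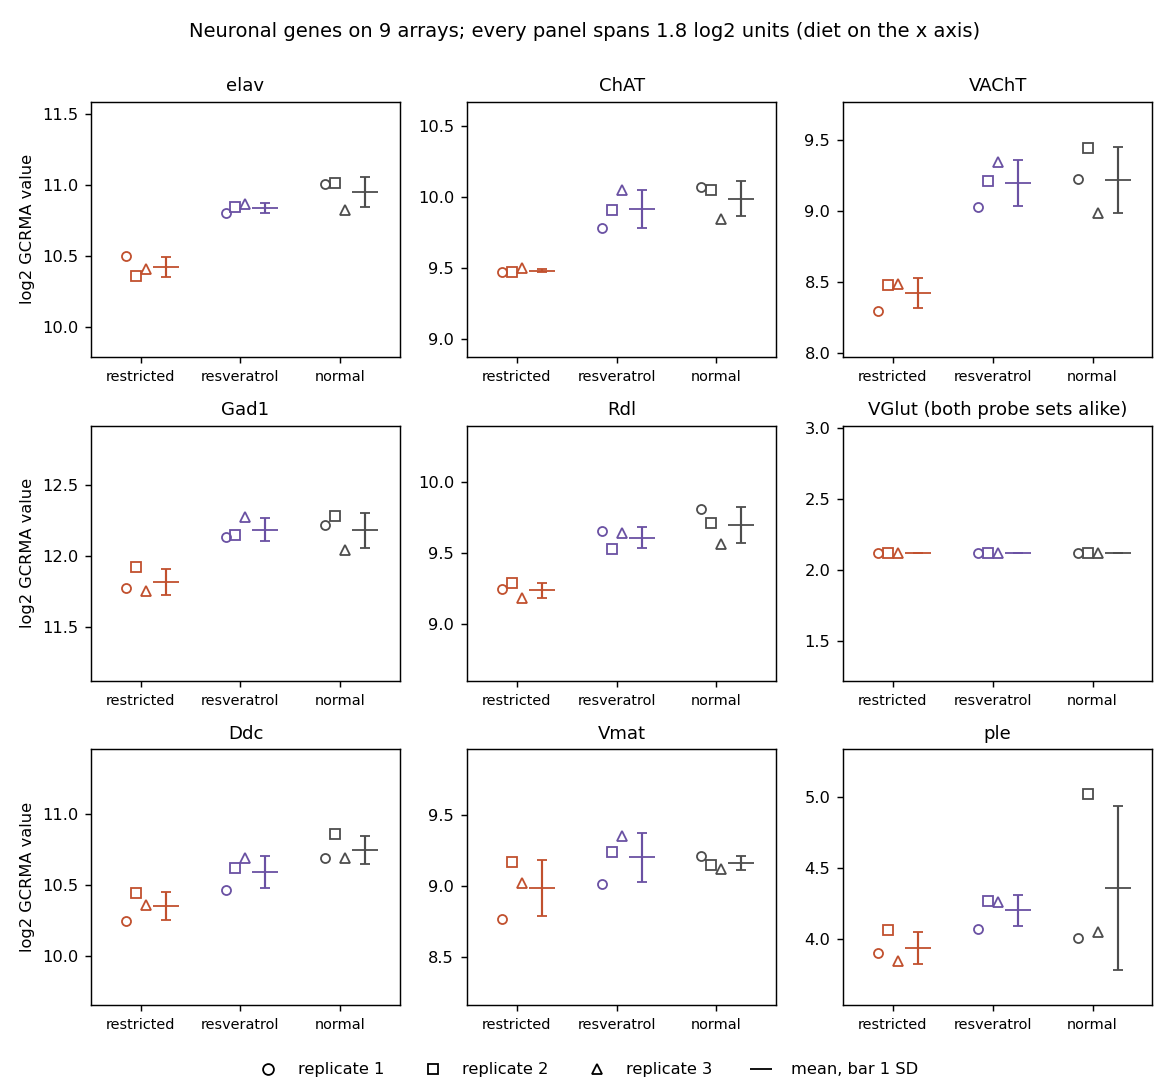
Log2 GCRMA values of the 9 genes on each array, by diet, with replicates as separate symbols and the mean ± 1 SD beside them; every panel spans the same number of log2 units, and the brightest probe set is shown. For elav, ChAT, VAChT, Gad1, Rdl and Ddc the 3 restricted-diet values lie below the 3 normal-diet values as deposited, for Vmat and ple they overlap, and VGlut lies at the lowest value of the table on all 9 arrays.

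The pan-neuronal gene elav (CG4262, X chromosome) encodes an RNA-binding protein that controls splicing and the use of polyadenylation sites in neurons. It stood at 10.50, 10.36 and 10.41 on the restricted diet, at 10.80, 10.85 and 10.87 with resveratrol and at 11.01, 11.01 and 10.83 on the normal diet. The restricted-diet arrays lay below all others, while the resveratrol and normal-diet arrays overlapped. The restricted-minus-normal change was -0.53 ± 0.07 (SE; 95% interval -0.68 to -0.37; limma adjusted p = 0.00817), a level 0.69 times that of the normal diet. With any 1 array left out it lay between -0.59 and -0.49 and passed each time. Relative to the 10 pan-neuronal genes it was -0.021 (adjusted p = 0.840).

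The cholinergic genes ChAT and VAChT share a locus on chromosome arm 3R: in the gene table used here they overlap and share 1 end. ChAT (CG12345), choline acetyltransferase, makes acetylcholine. Its values were 9.47, 9.47 and 9.50 on the restricted diet, 9.78, 9.91 and 10.05 with resveratrol, and 10.07, 10.05 and 9.85 on the normal diet. The restricted-diet arrays again lay below the other 6, with an SD of 0.013 among themselves. The change was -0.51 ± 0.09 (SE; 95% interval -0.70 to -0.31; adjusted p = 0.0132), and without normal-diet replicate 1 it was -0.46 and did not pass (adjusted p = 0.0517).

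VAChT (CG32848), the carrier that loads acetylcholine into vesicles, was measured at 8.29, 8.47 and 8.49 on the restricted diet, 9.03, 9.21 and 9.35 with resveratrol, and 9.22, 9.44 and 8.98 on the normal diet. Its restricted-diet values lay below those of every other array, with the widest gap of the 6 genes. The change was -0.80 ± 0.13 (SE; 95% interval -1.10 to -0.49; adjusted p = 0.0126), or 0.58 times the normal-diet level, and it passed in all 20 other settings tried. It also passed relative to the 10 pan-neuronal genes, at -0.29 (adjusted p = 0.0226), whereas ChAT had -0.00029 on that scale (adjusted p = 0.997).

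The 2 cholinergic genes were therefore compared within each array, a comparison chosen after their values were seen. VAChT minus ChAT was -1.18, -1.001 and -1.01 on the restricted diet, -0.76, -0.69 and -0.71 with resveratrol, and -0.85, -0.61 and -0.87 on the normal diet. The restricted-diet differences lay below the other 6. The mean difference moved by -0.29 between the restricted and normal diets (exact permutation test, two-sided, p = 0.1, the smallest that 3 against 3 arrays allow).

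GABA was represented by its enzyme and by a receptor. Gad1 (CG14994, 3L), glutamate decarboxylase, makes GABA from glutamate; its probe set is of a type whose probes can match several transcripts. It stood at 11.78, 11.92 and 11.75 on the restricted diet, 12.13, 12.14 and 12.28 with resveratrol, and 12.22, 12.28 and 12.04 on the normal diet. The groups of the restricted and normal diets did not overlap, and the change was -0.36 ± 0.08 (SE; 95% interval -0.55 to -0.17; adjusted p = 0.0252). Rdl (CG10537, 3L), a subunit of the GABA-gated chloride channel and the target of the insecticide dieldrin, stood at 9.24, 9.29 and 9.18 on the restricted diet, 9.66, 9.53 and 9.64 with resveratrol, and 9.81, 9.71 and 9.56 on the normal diet. Every restricted-diet array was below every other array. The change of Rdl was -0.46 ± 0.08 (SE; 95% interval -0.63 to -0.29; adjusted p = 0.0126), and it passed with any 1 array left out.

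Relative to the 10 pan-neuronal genes, Gad1 had a change of 0.14 (adjusted p = 0.0947) and Rdl one of 0.045 (adjusted p = 0.666). Gad1 minus the pan-neuronal mean was 2.08, 2.10 and 2.08 on the restricted diet and 2.03, 1.98 and 1.99 with resveratrol. On the normal diet it was 1.95, 1.93 and 1.96, so the diets did not overlap. Each pair of diets had p = 0.1 (exact permutation test, two-sided), the smallest possible. The restricted and normal diets did not overlap on this scale for VAChT and Vmat either. The share of all genes that did not overlap on this scale was not analysed. The Gad1 call was lost without normal-diet replicate 1 (-0.35, adjusted p = 0.0805), normal-diet replicate 2 (-0.31, 0.0795), restricted-diet replicate 1 (-0.34, 0.0799) or restricted-diet replicate 3 (-0.33, 0.0715). The call was also lost without a filter on dim probe sets (0.0644), with the replicate number as a block (0.0526) and with the mean of germline markers as a covariate (0.0722).

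Glutamate could not be followed through its vesicular carrier. VGlut (CG9887, 2L), which loads glutamate into vesicles, has 2 probe sets, and both stood at 2.12, the lowest value of the table, on all 9 arrays. Between 33.6% and 35.2% of all probe sets of an array stood at that value. These 2 probe sets therefore gave no measured level of VGlut and no comparison between diets.

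The monoamine genes were Ddc, ple and Vmat. Ddc (CG10697, 2L), dopa decarboxylase, carries out the last step of both dopamine and serotonin synthesis. It was at 10.25, 10.44 and 10.36 on the restricted diet, 10.47, 10.62 and 10.69 with resveratrol, and 10.69, 10.86 and 10.69 on the normal diet. The restricted-diet values lay below all others, and the resveratrol values lay between, overlapping those of the normal diet by less than 0.01. The restricted-minus-normal change was -0.40 ± 0.08 (SE; 95% interval -0.59 to -0.20; adjusted p = 0.0217), and relative to the pan-neuronal genes it was 0.11 (adjusted p = 0.251). The call was lost without normal-diet replicate 1 (-0.42, adjusted p = 0.0580), normal-diet replicate 2 (-0.34, 0.0676), restricted-diet replicate 1 (-0.34, 0.0691) or restricted-diet replicate 3 (-0.40, 0.0559), without a filter on dim probe sets (0.0581) and with the germline covariate (0.0603).

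Tyrosine hydroxylase, encoded by ple (CG10118, 3L), makes the dopamine precursor dopa. It stood near the background limit: 3.90, 4.07 and 3.85 on the restricted diet, 4.08, 4.27 and 4.27 with resveratrol, and 4.01, 5.03 and 4.05 on the normal diet. It reached log2 4 on 1 restricted-diet, 3 resveratrol and 3 normal-diet arrays, and it entered the tests through the last 2 groups. Normal-diet replicate 2 stood 0.98 above the next array of its diet. The change of ple did not pass (-0.42, 95% interval -1.003 to 0.15, adjusted p = 0.246), was -0.09 without normal-diet replicate 2, and is given no fold. Relative to the pan-neuronal genes it was 0.081 (adjusted p = 0.730).

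Vmat (CG33528, 2R), the carrier that loads dopamine, serotonin and octopamine into vesicles, had 4 probe sets. The brightest, 1628739_at, stood at 8.77, 9.17 and 9.02 on the restricted diet, 9.02, 9.24 and 9.35 with resveratrol, and 9.22, 9.15 and 9.12 on the normal diet. Its diets overlapped and its change did not pass (-0.17 ± 0.12, SE; 95% interval -0.45 to 0.10; adjusted p = 0.308). The other 2 bright probe sets gave a different picture.

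In the fit that kept every probe set, 1636275_a_at stood at 8.19, 8.22 and 8.12 on the restricted diet, against 8.60, 8.70 and 8.50 on the normal diet, a change of -0.42 ± 0.09 (SE; adjusted p = 0.0205). The probe set 1637393_at stood at 8.30, 8.51 and 8.21 on the restricted diet, against 8.93, 9.06 and 8.79 on the normal diet, a change of -0.59 ± 0.14 (SE; adjusted p = 0.0293). In both, every restricted-diet value lay below every normal-diet value. The 4th, 1632856_s_at, stood between 2.68 and 3.69 on all 9 arrays and was not clearly above background. With the mean of the 3 bright probe sets standing for the gene, Vmat fell by 0.39 (adjusted p = 0.0396). Relative to the 10 pan-neuronal genes the brightest probe set turned the other way and passed as higher on the restricted diet, at 0.33 (adjusted p = 0.0244). The probe sets 1636275_a_at and 1637393_at were not tested on that scale.

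**Figure D2:**
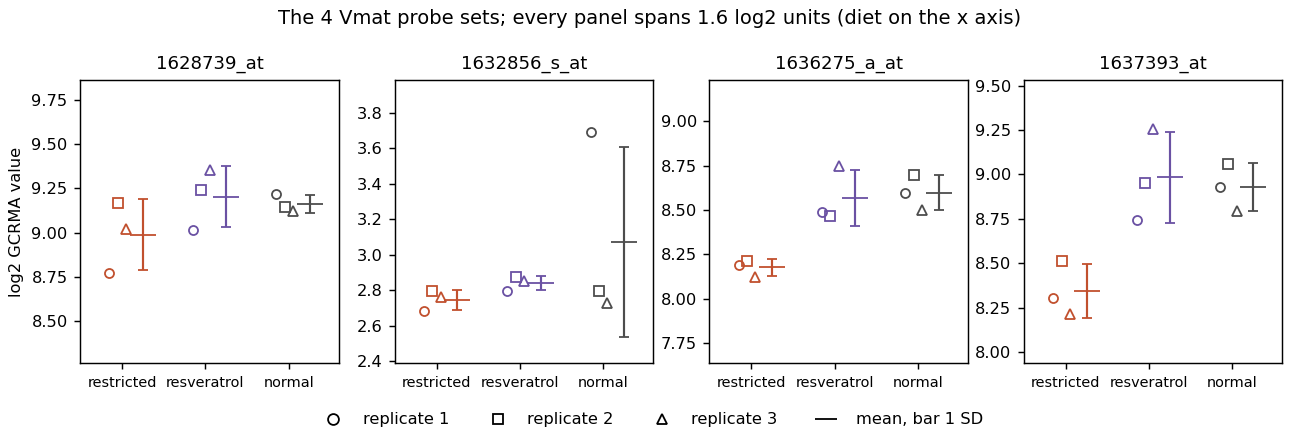
Log2 GCRMA values of the 4 Vmat probe sets on each array, by diet, with replicates as separate symbols and the mean ± 1 SD beside them. The restricted-diet values lie below the normal-diet values for 1636275_a_at and 1637393_at, overlap them for 1628739_at, and 1632856_s_at stays under log2 4 on all 9 arrays.

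Whether the Vmat probe sets moved apart was tested on their differences within an array, together with all 929 pairs of probe sets that name the same gene, in a fit chosen after the values were seen. The difference of 1628739_at minus 1637393_at was 0.41 higher on the restricted than on the normal diet (95% interval 0.15 to 0.68), and this did not pass (limma adjusted p = 0.120). Of the 929 pairs, 10 passed (1.08%). The difference of 1628739_at minus 1636275_a_at changed by 0.25 (95% interval -0.03 to 0.53, adjusted p = 0.294). Which Vmat transcripts each probe set covers was not analysed here.

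The second comparison asks how the same transcripts stand when resveratrol is added to the normal diet. None of the 8 genes passed, against 20 of 8822 genes in all (0.227%). At an unadjusted p under 0.05 there were again 0 of the 8, where 9.74% of all genes were below it. As deposited, all 8 genes had overlapping values on the resveratrol and normal diets. The resveratrol values lay all below those of the normal diet for 9.09% of all genes and all above them for 6.35%. The 8 changes lay between -0.16 and 0.04, with a median of -0.08, against -0.01 over all genes tested; the sign of Gad1 turned when arrays were centred on the median gene and that of VAChT when they were scaled to the pan-neuronal genes. The intervals bound what could have been missed. For elav the 95% interval was -0.27 to 0.05, for ChAT -0.27 to 0.12, for Gad1 -0.19 to 0.19, for Rdl -0.26 to 0.09 and for Ddc -0.35 to 0.04. They were wider for VAChT (-0.32 to 0.28), Vmat (-0.23 to 0.32) and ple (-0.74 to 0.42).

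The treatments were also set against each other, restricted diet minus resveratrol; this comparison shares the restricted-diet arrays with the first. Of the 8 genes, elav, ChAT, VAChT and Rdl were lower on the restricted diet, where 2.09% of all genes passed in that direction and 0.453% in the other. Their changes were -0.42 ± 0.07, -0.43 ± 0.09, -0.78 ± 0.13 and -0.37 ± 0.08 (SE), with limma adjusted p = 0.0413, 0.0475, 0.0413 and 0.0496. Gad1 had -0.37 (adjusted p = 0.0607), Ddc -0.24 (0.139), Vmat -0.22 (0.284) and ple -0.27 (0.517). For elav, ChAT, VAChT, Gad1, Rdl and Ddc every restricted-diet value lay below every resveratrol value, as it did for 21.2% of all genes tested. The Vmat values overlapped. Those of ple did not, at 4.07 against 4.08 where they came closest. But ple stood near background and entered the tests through its resveratrol and normal-diet arrays, so it is not counted.

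These 4 calls stood close to the threshold. The count of 4 became 0 under quantile normalization, with arrays centred on the median gene, without a filter on dim probe sets, and in the fit of these 2 diets alone. It was also 0 without normal-diet replicate 1, without any 1 of the restricted-diet arrays or without any 1 of the resveratrol arrays, and it was 2 without normal-diet replicate 2. Relative to the pan-neuronal genes 7 of the 8 changes had a positive sign, and VAChT alone fell, by 0.33 (adjusted p = 0.0185). Of all genes tested, 5.72% had a negative change on that scale, and the median of all genes was 0.41.

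**Figure D3:**
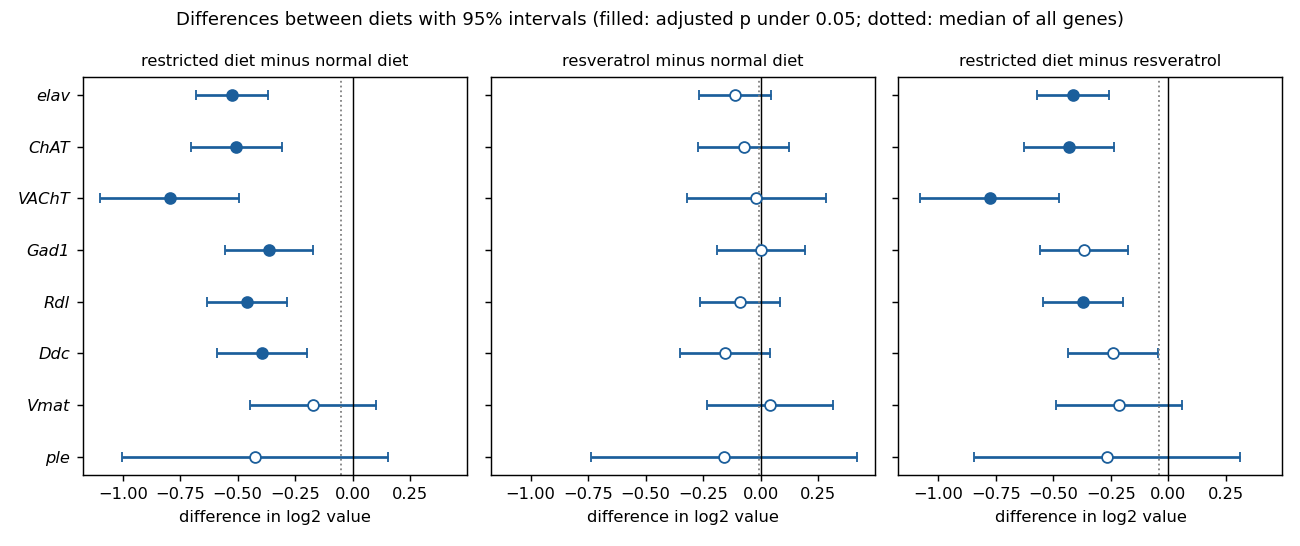
Differences in log2 value between diets for the 8 measured genes, with 95% intervals from limma; filled points passed at an adjusted p under 0.05 and the dotted line is the median change of all genes tested. The restricted diet has 6 filled points against the normal diet and 4 against resveratrol, and resveratrol has none against the normal diet; all changes are on the deposited scale, and relative to pan-neuronal genes 5 and 7 of the restricted-diet changes turn positive.

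Within a diet the 8 genes shared some of their spread. Resveratrol replicate 1 had the lowest value of its diet for 7 of the 8 genes and resveratrol replicate 3 the highest for 6. Normal-diet replicate 3 had the lowest for 7, and normal-diet replicate 2 the highest for 5. The mean of the 8 genes lay between 9.03 and 9.15 on the restricted diet, between 9.37 and 9.56 with resveratrol and between 9.39 and 9.69 on the normal diet.

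The other genes of the same pathways were read from lists chosen for their function. Directions in these lists and in those of other tissues are on the deposited scale; relative to the pan-neuronal genes, 6.21% of all genes tested had a negative change, against 58.7% as deposited. Of 10 pan-neuronal genes measured, 7 fell on the restricted diet, none rose and 3 did not pass, with a median of -0.43. They included nSyb, the synaptic vesicle SNARE protein (-0.80), para, the voltage-gated sodium channel (-0.91, with 5.85 ± 0.14 on the restricted and 6.77 ± 0.26 on the normal diet, SD, n = 3), brp, the active-zone protein (-0.41), and Appl, the fly relative of the amyloid precursor protein (-0.44). Of 6 neuronal transcription and RNA-binding factors, 4 fell: lola by 0.39, pros by 0.60, cpo by 0.37 and onecut by 0.69. The array holds 15 probe sets for lola and 3 for cpo, and only the brightest is given, as for every listed gene.

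Of 11 measured acetylcholine genes, 7 fell on the restricted diet and none rose, with a median of -0.41. The choline transporter ChT, which returns choline to the terminal, was at 9.78 ± 0.14 on the restricted diet, against 10.40 ± 0.11 on the normal diet (SD, n = 3; change -0.63, adjusted p = 0.0139). Among the nicotinic receptor subunits nAChRalpha7 fell by 0.99, nAChRalpha2 by 0.39 and nAChRalpha4 by 0.41. The first was dim, at 5.35 ± 0.35 on the restricted diet, against 6.33 ± 0.15 on the normal diet (SD, n = 3), and GCRMA widens changes in that range. As deposited, supply, loading and reception of acetylcholine each held a gene that was lower, and the lists of other transmitters held lower genes too. Whether any of this is particular to acetylcholine was not tested. The subunit nAChRalpha1 and the muscarinic receptor mAChR-C had probe sets that stayed under log2 4.

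Of the 4 measured GABA genes besides Gad1 and Rdl, 3 fell, with a median of -0.63: the GABA-B receptor GABA-B-R3 by 0.73, the GABA reuptake transporter Gat, which the glial list also holds, by 0.58, and VGAT, the vesicular GABA carrier, by 0.68. GABA-B-R3 and VGAT were dim as well, at 5.86 ± 0.17 and 5.53 ± 0.31 on the restricted diet, against 6.59 ± 0.21 and 6.21 ± 0.12 on the normal diet (SD, n = 3). The receptor subunit Lcch3 did not pass (-0.41, adjusted p = 0.0816). Of 13 measured glutamate genes, 3 fell and none rose (median -0.31). The kainate-type receptor Ekar fell by 0.58, the transporter Eaat2 by 0.44 and the glutamate-gated chloride channel GluClalpha by 0.95, while Got2, a mitochondrial aspartate aminotransferase, had 0.28 and did not pass (adjusted p = 0.0759).

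Among 17 measured genes of the amine list 10 fell and none rose (median -0.52). The dopamine receptors Dop1R1 and DopEcR fell by 0.98 and 0.93, the serotonin receptor 5-HT7 by 1.01 and Hdc, which makes histamine, the photoreceptor transmitter, by 0.49. One of the 10, Nhe3, is a sodium/proton exchanger and no transmitter gene. Dop1R1 and 5-HT7 were dim, at 4.84 ± 0.37 and 4.50 ± 0.07 on the restricted diet, against 5.81 ± 0.13 and 5.51 ± 0.35 on the normal diet (SD, n = 3), in the same low range. Of 6 cuticle tanning genes, the list closest to the epidermal role of ple and Ddc, 1 fell, yellow-f by 0.38 (median -0.25). The pigment genes e and t had -1.08 and -0.31, and the laccase stw -0.19, and did not pass (adjusted p = 0.127, 0.121 and 0.165).

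In the resveratrol comparison none of these 7 lists had a gene past the threshold. The smallest p-values of each list belonged to Rbp9 (-0.19) and Nrg (-0.13), nAChRalpha5 and Ace (both -0.12), Gs1 (-0.18) and Ekar (-0.20), GABA-B-R3 (-0.16) and VGAT (-0.12), Dop1R1 (-0.36) and Nhe3 (-0.16), e (-0.53) and Pu (0.16), and lola (-0.15) and Lim3 (-0.21). Their limma adjusted p lay between 0.420 and 0.881.

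**Figure D4:**
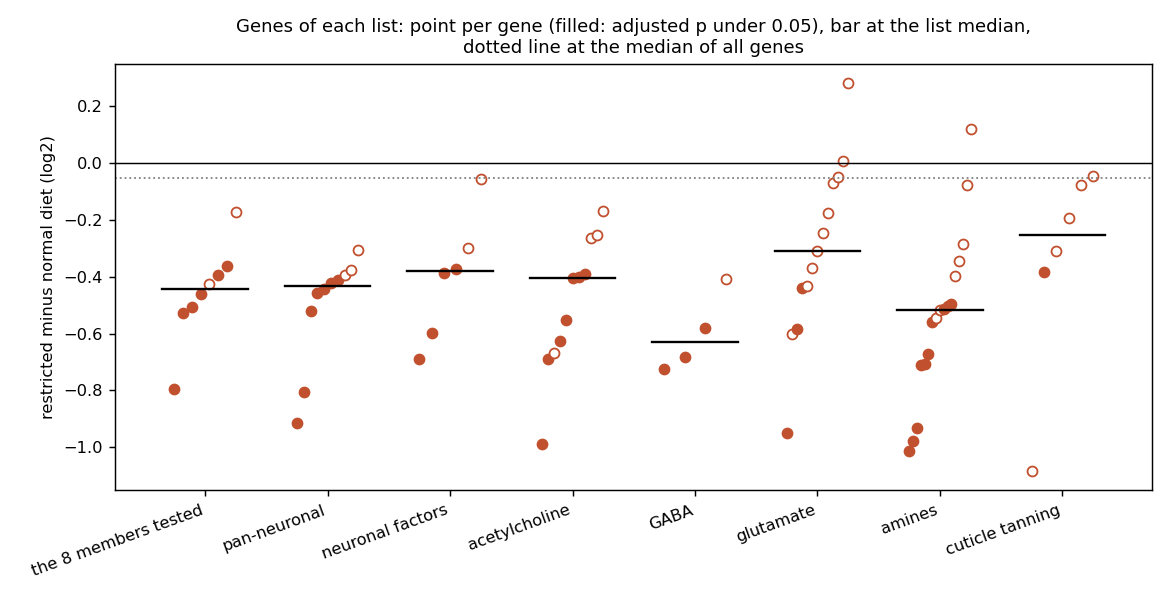
Restricted-minus-normal change in log2 value of the 8 measured genes and of every measured gene of each list, as deposited; filled points passed at an adjusted p under 0.05, bars are list medians and the dotted line is the median of all genes. The list medians lie between -0.63 for GABA and -0.25 for cuticle tanning, and no gene of these lists passed in the higher direction; relative to the pan-neuronal genes the median of all genes is 0.45.

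Head and thorax hold eyes and flight muscle, and markers of both were bright on all arrays. They too moved between the diets. The mean of 11 eye genes lay between 11.28 and 11.32 on the restricted diet, against 11.70 to 11.85 on the normal diet, and all 11 fell, among them inaC, Galphaq and trpl. The mean of 15 muscle genes lay between 12.62 and 12.80 on the restricted diet, against 12.94 to 13.17 on the normal diet, and 8 fell, with Zasp52, TpnC4 and TpnC41C among them. For 9 glial genes the mean lay between 9.98 and 10.13 on the restricted diet, against 10.27 to 10.42 on the normal diet, and 4 fell, including Tret1-1, nrv2 and Gat. The list medians were -0.48 for eye, -0.28 for muscle and -0.31 for glia. The eye list is largely one of photoreceptors, which are neurons themselves. By the muscle and glial lists, neuronal genes were not the only ones of head and thorax to be lower as deposited.

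Midgut markers and part of the fat body list ran the other way. The mean of 11 midgut genes lay between 11.39 and 11.91 on the restricted diet, against 9.78 to 10.85 on the normal diet, and 8 rose, among them Jon74E, Jon65Aiii and Npc2e. The mean of 7 fat body genes lay between 14.86 and 14.99 on the restricted diet, against 13.90 to 14.08 on the normal diet. Of these, 4 rose, including fit (0.78), Lsp2 (3.89) and Obp99b (1.39). The other 3, apolpp (-0.01), Yp1 (0.005) and Yp3 (0.15), did not pass. The list medians were 0.73 for midgut and 0.23 for fat body, so the fat body mean rested largely on a few genes. The fat body marker Fbp1 stayed at or under 2.20. With resveratrol the 2 list means also lay above the normal diet, between 10.87 and 11.20 for midgut and between 14.57 and 14.93 for fat body. In that comparison no gene of either list passed. The part of these tissues in the neuronal values was not tested.

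Genes of the germline list, which also holds the eggshell genes Vm26Aa, Cp15 and Cp18, varied between arrays of the same diet. The mean of 10 of them was 9.49, 6.91 and 8.62 on the restricted diet, 9.61, 8.57 and 6.15 with resveratrol, and 6.44, 7.26 and 7.12 on the normal diet, with piwi, aub and orb not passing (adjusted p = 0.0649, 0.0828 and 0.0882) and vas at or under 2.19. With the germline mean as a covariate, 4 of the 6 calls remained, and Ddc (-0.32) and Gad1 (-0.29) did not pass (adjusted p = 0.0603 and 0.0722). The part of germline RNA in the neuronal values was not tested further.

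**Figure D5:**
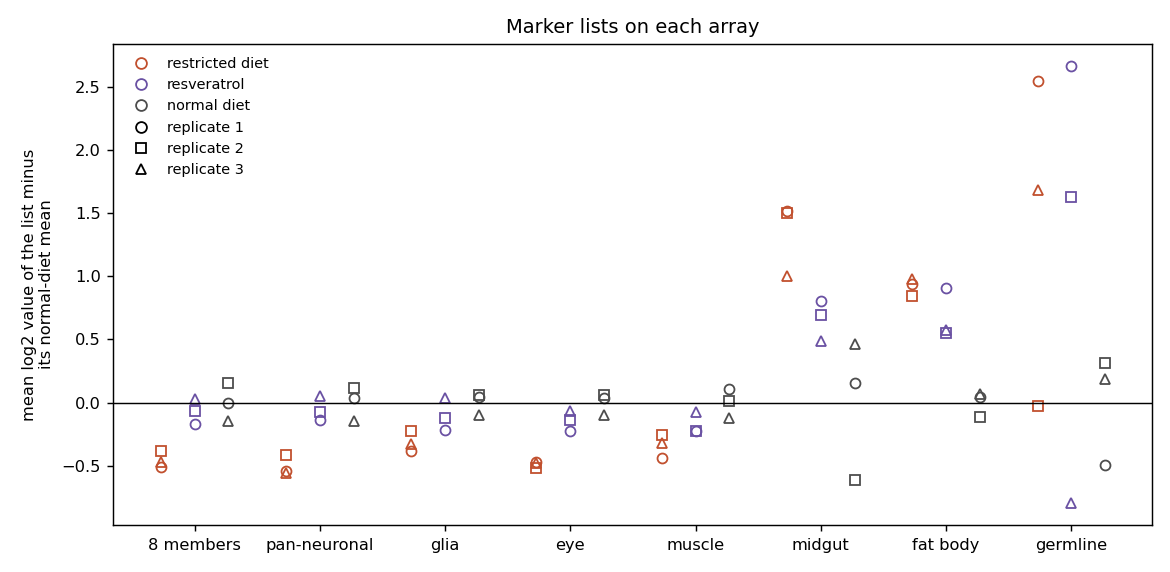
Mean log2 value of each marker list on each array, minus the mean of its 3 normal-diet arrays, with diets as colours and replicates as symbols. On the restricted diet the neuronal, glial, eye and muscle lists lie below all normal-diet arrays, midgut and fat body lie above them on the deposited scale, and the germline list spreads within each treatment.

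The difference between 3' and 5' probe sets of control genes, a measure of RNA integrity, was close between diets for eIF-4a (2.72, 2.72 and 2.76 on the restricted diet, with resveratrol and on the normal diet), GAPDH (0.70, 0.74 and 0.65) and actin (1.28, 1.40 and 1.40). For 18S rRNA it was 0.30, 0.77 and 0.79. There the restricted-diet arrays, at 0.50, 0.07 and 0.31, lay below all others, which stood between 0.66 and 0.94. The part of RNA quality in the neuronal values was not tested.

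Genes whose 9 values ran most like those of a member were named by Pearson correlation over the 9 arrays, among 7758 other genes. They are a description only, since all genes share the arrays and the differences between diets. The closest to ChAT was nSyb (r = 0.99), the closest to Gad1 was unc-104, the kinesin that carries synaptic vesicle precursors (r = 0.99), and the closest to Rdl was Tomosyn, an inhibitor of vesicle release (r = 0.99). The next were CG5890 and prd1 for ChAT, OtopLa and NetB for Gad1, and CLIP-190 and Syngr for Rdl. For elav the 3 closest were CG8726, inaC and eIF4B, for VAChT CG40498, CG8500 and CG32206, and for Ddc gammaSnap2, nrv2 and CG1674, all with r from 0.98 to 0.99. For Vmat they were Gbeta5 (r = 0.97), CG6435 (0.97) and fln (0.96), a gene of the muscle list. For ple they were CG5877 (r = 0.98), CG14567 (0.96) and Sirt1 (0.96).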

How the data were processed

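RNA from 9 pools of flies was measured on Affymetrix Drosophila Genome 2.0 arrays, 3 per diet, and groups were taken from the labels. The authors deposited 1 log2 value per probe set, made with GCRMA per the submitters' processing notes, whose version is not given in the sources. That the scale is log2 was judged from the range, 2.12 to 16.39. GCRMA widens changes near its floor. Of 18952 probe sets, 183 controls were left out. Symbols came from the platform annotation, updated by gene identifier. The filter left 9401 probe sets and 8822 genes. All 9 arrays were fitted in limma 3.58.1 (R 4.3.3) with 1 mean for each diet and eBayes (6 residual and 1.81 prior degrees of freedom), checked on simulated data. Same-diet arrays had correlations of 0.994 to 0.998, and 3 arrays a diet limit the precision.

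The members and lists were chosen with earlier results of these data known. Named genes were all members, up to 4 genes of each pathway list with the smallest p on the restricted diet and 2 with resveratrol, up to 3 of each marker list, and the 3 genes most like each member. Alternatives covered normalization, filter, probe set, variance model, arrays, replicate block, a germline covariate and leaving out each array. Some listed genes had no probe set naming them alone and were not analysed here.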

Additional observations from a re-analysis of the deposited data

How the results depend on the processing

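The 6 falls on the restricted diet against the normal diet were 4 to 7 under the settings that kept all arrays and did not scale them to neuronal genes, and 3 to 6 with 1 array left out (3 without normal-diet replicate 1). Without the filter on dim probe sets, or with the germline covariate, Ddc and Gad1 did not pass, which left 4. Scaling to the pan-neuronal genes moved the median of all genes from -0.05 to 0.45. On that scale 1 member was called lower (VAChT) and 1 higher (Vmat, by its brightest probe set, 1628739_at). The positive changes were then 0.33 for that Vmat probe set, 0.081 for ple, 0.11 for Ddc, 0.14 for Gad1 and 0.045 for Rdl. The Vmat probe sets 1636275_a_at and 1637393_at, with -0.42 and -0.59 as deposited, were not tested on that scale, so the higher call does not cover them. For restricted diet minus resveratrol the 4 calls became 1 on that scale, and 0 with quantile normalization, median centring, no filter, only the 2 diets or the replicate block, and 0 to 4 with 1 array left out. There the scaled changes were 0.035 for elav, 0.019 for ChAT, 0.23 for Vmat, 0.19 for ple, 0.21 for Ddc, 0.084 for Gad1 and 0.080 for Rdl. For resveratrol minus normal diet 0 members passed under all 20 settings. Signs turned there for VAChT, at 0.035 scaled to pan-neuronal genes, at 0.063 with the germline covariate and from -0.14 to 0.094 with 1 array left out. They turned for Gad1 at -0.030 with median centring and from -0.066 to 0.054, for Vmat from -0.033 to 0.14 and for ple from -0.33 to 0.17 with 1 array left out. Beyond the scaling itself, the cause was not tested.

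Counts over all genes, 1604, 20 and 224 in the 3 comparisons, ranged over the settings from 332 to 6264, from 1 to 47 and from 0 to 5632. The labels number the replicates in each diet, but arrays with the same number did not deviate together (correlations of deviations from -0.33 to 0.40 over 9 pairs, against -0.37 to 0.41 over pairs with other numbers), so the pairing is by number alone and not every array correlated best with its own number. With the replicate block 5, 0 and 0 members were called lower in the 3 comparisons, and 931, 1 and 0 genes in all.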
